A study of Mus musculus with 5 samples.

Results

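The genes of the bone morphogenetic protein (BMP) pathway described here were 5 ligands (Bmp2, Bmp3, Bmp4, Bmp5 and Bmp7), the secreted antagonist Grem1, the receptors Bmpr1a and Bmpr2, and the response genes Id1 and Id3. These 10 genes were chosen by name from the 22147 genes listed over the 5 libraries, and all 10 were measured in every library. Their raw UMI counts (unique molecular identifiers, 1 per captured transcript) were read in cells with at least 500 genes and at most 15% mitochondrial counts. The question was which cell types held the ligands and the antagonist, and which held the response genes, in treated tumors and in normal colon stroma.

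BMPs are secreted ligands of the TGFβ superfamily. They bind type I receptors such as BMPR1A together with the type II receptor BMPR2. The type I receptors phosphorylate SMAD1, SMAD5 and SMAD9, and these SMADs enter the nucleus with SMAD4 and activate genes that include Id1 and Id3. ID proteins bind bHLH transcription factors and keep them from binding DNA. GREM1, noggin, chordin-like proteins and follistatin bind ligands outside the cell and keep them from the receptors. In the colon, BMP signaling is known to be higher toward the surface of the crypt than at its base, where stem cells reside.

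The 4 tumor libraries came from wildtype mice (C57BL/6J or a C57BL/6J and 129 mixed background, young adult at the start) that bore AOM/DSS colon tumors (azoxymethane, a carcinogen, followed by the colitis agent DSS) and received 5FU and Irinotecan, so that no untreated tumor was in these files. Replicates 1 and 2 of day 1 formed the early group, and day 3 and day 6 the late group, and 4 values in a row follow this order. The study does not settle whether the days count from the start or the end of treatment. The fifth library came from untreated wildtype colon prepared by a fibroblast dissociation, which frees stromal cells, whereas the tumors had the normal dissociation, so tumor and normal values are set side by side and not tested. The inDrop libraries held 748, 2403, 1419 and 2826 kept cells (5132360 to 16904947 UMIs) and 1095 cells in the stroma library (5814641 UMIs). The first replicate of day 1 and the day 3 library had a single index, and the rest a dual index, with a different sequencer for each. Pairs of libraries shared 4 to 41 barcodes. The labels do not say which animals the libraries came from, so p-values measure the spread between these libraries only.

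Cells were clustered without the genes of the BMP pathway and named from marker genes with the suffix -like. Columnar epithelial cells numbered 124, 844, 874 and 1348 in the tumor libraries, named at a lower fold of their markers than the other types, and squamous-like cells 53, 187, 281 and 729. Fibroblast-like cells were few in tumors, with 14, 39, 30 and 56 cells, or 1.87, 1.62, 2.11 and 1.98% of cells. In the paper's methods for tumors, crypts held back by a filter were kept and the flow-through was thrown away. Shares of cells and of counts by type here thus describe the cells recovered and not the tissue. The stroma library, against the name of its preparation, held 328 columnar and 69 goblet-like cells beside 267 fibroblast-like and 100 telocyte-like cells, 72 that were myofibroblast-like and 25 pericyte-like. Telocytes are Pdgfra+ cells that lie against the epithelium, and Bmp7, though left out of the clustering, was among the 10 leading genes of the telocyte-like cluster, which was led by Procr, Wnt5a and Emid1. A tumor cluster of 150, 395, 23 and 16 cells, led by Mt4, Mdga2, Spock2 and Cadps and with Wif1 and Nkd1 among its 10 leading genes, met no naming rule and is called the Wif1 cluster. Levels (CPM) are the counts of a gene in the summed cells of a type, scaled to a common total. UMIs are not scaled by transcript length, so levels are compared between cell types and not between genes.

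In the normal stroma, each of the 5 ligands had its highest level in telocyte-like cells. Bmp2 (chr2:133552159-133562885, plus strand, GRCm38) stood at 1102 CPM there (287 counts, exact 95% Poisson interval 978 to 1237) and was in 70.0% of these cells (median 2107 UMIs), against 5.88% of plasma cell-like cells (median 5762 UMIs). Columnar cells followed at 254 (237 to 272), a level separate from that of telocyte-like cells by the counting intervals, and myofibroblast-like (135), pericyte-like (134) and fibroblast-like cells (126) did not differ from each other beyond their intervals. Columnar cells, 328 of the 1095 cells, held 62.4% of the Bmp2 counts of the library and telocyte-like cells 22.7%. Intervals and limits here cover counting error only, and with 1 stroma library no test was made between conditions.

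Bmp2 differed within the columnar cells of the stroma library. The cluster led by Saa1, Aqp8 and Sprr2a1, which also had Car4, Slc26a3 and Krt20 among its leading genes as surface colonocytes do, stood at 573 CPM (567 counts in 148 cells, interval 527 to 622). The cluster led by Aqp4, Foxq1 and Edn2 stood at 123 (107 to 140.1), and the cluster led by the cell cycle genes Top2a and Ube2c at 26.4 (10 counts, 12.6 to 48.5). The intervals of the 3 clusters did not overlap.

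Bmp4 (chr14:46383520-46390669, minus strand) reached 2742 CPM in telocyte-like cells, from 714 counts with an interval of 2544 to 2951. The fibroblast-like level was 1941, from 1498 counts (1844 to 2042). Myofibroblast-like (906) and pericyte-like cells (356) followed, and columnar cells stood lower at 33.7. The intervals of these 5 types did not overlap. A UMI of Bmp4 was in 94.0% of the telocyte-like and 88.8% of the fibroblast-like cells (medians 2107 and 2310 UMIs), against 12.5% of columnar cells (median 6025.5 UMIs) and 14.7% of plasma cell-like cells (median 5762 UMIs), a type not known for this ligand. Fibroblast-like cells held 55.9% of its counts. Of their 3 clusters, those led by C4b and by Fbln1 stood at 2155 and 2517 CPM, and the one led by Cilp, Inmt and Pi16 at 541 (424 to 681).

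Bmp7 and Bmp3 were the ligands most concentrated in telocyte-like cells. Bmp7 (chr2:172868012-172940321, minus strand), which signals with Bmp2 or Bmp4 as a heterodimer, reached 511 CPM in the telocyte-like cells (interval 428 to 605 from 133 counts) but 40.2 in the fibroblast-like ones (27.3 to 57.0). Telocyte-like cells, 9.13% of the library, held 73.9% of its counts. Myofibroblast-like cells had 0 counts, which allows up to 15.6 CPM, and the measured telocyte-like level was 32.7 times that limit. Bmp3 (chr5:98854415-98884396, plus strand), a BMP that opposes the osteogenic ones, was at 261 CPM in telocyte-like (203 to 331 from 68 counts), 10.6 in columnar and 9.07 in fibroblast-like cells, and telocyte-like cells held 59.6% of its counts. Bmp5 (chr9:75775364-75900310, plus strand) was sparse, and telocyte-like cells had 23 counts (88.3 CPM with an interval of 56.0 to 133) where fibroblast-like cells had 12 (15.5 CPM). The intervals of Bmp5 in lymphatic endothelial-like and pericyte-like cells, with 2 counts each, overlapped that of telocyte-like cells.

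Grem1 (chr2:113746164-113758646, minus strand) had the reverse pattern among mesenchymal cells. Fibroblast-like cells were at 428 CPM (interval 383 to 476 from 330 counts), and there were 0 counts in 100 telocyte-like cells, which allows up to 11.5 CPM. The measured fibroblast-like level was 37.1 times that limit. Fibroblast-like cells held 76.6% of the 431 Grem1 counts of the library. The level differed among their clusters, with 555 CPM (492 to 625) in the one led by C4b, 296 (214 to 398) in the one led by Fbln1 and 104 (56.8 to 174) in the one led by Cilp.

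The Grem1 level of myofibroblast-like cells, 427 CPM, rested on few cells. Its 82 counts lay in 4 of 72 cells, 40 of them in 1 cell. A level of 68.9 CPM in plasma cell-like cells likewise rested on 15 counts in 3 of 34 cells, and columnar cells held 2 counts in 328 cells (0.610%, median 6025.5 UMIs). In fibroblast-like cells the counts were spread over 88 of 267 cells (33.0%, median 2310 UMIs), and the cell with most held 8.48% of them. A UMI of Bmp4 was in 85 of these 88 cells and in 237 of the 267, so most cells with the antagonist also held the ligand, as did most fibroblast-like cells.

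Since Bmp4 and Grem1 shared the fibroblast-like cells and parted in the telocyte-like cells, the 250 bases before their start sites are shown (5′ to 3′, minus strand, RefSeq, GRCm38.p6), Bmp4 at chr14:46390670-46390919 and Grem1 at chr2:113758649-113758898. Capitals mark GTCT and its reverse complement AGAC, the 4 letters that SMAD proteins are known to bind. 6 of the 10 genes were in the promoter table used, and Bmp2, Bmp3, Bmp7 and Id1 were not.
Bmp4: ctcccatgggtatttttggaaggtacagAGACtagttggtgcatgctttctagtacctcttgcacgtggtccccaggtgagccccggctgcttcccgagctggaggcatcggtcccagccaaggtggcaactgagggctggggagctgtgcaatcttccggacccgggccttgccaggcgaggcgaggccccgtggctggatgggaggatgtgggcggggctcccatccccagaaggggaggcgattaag
Grem1: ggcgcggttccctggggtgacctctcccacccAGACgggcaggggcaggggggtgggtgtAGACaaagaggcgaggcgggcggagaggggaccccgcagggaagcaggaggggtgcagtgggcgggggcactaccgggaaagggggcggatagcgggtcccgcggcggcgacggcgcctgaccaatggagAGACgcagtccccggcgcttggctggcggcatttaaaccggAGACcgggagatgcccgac
GTCT or AGAC occurred 1 time in the Bmp4 window and 4 times in the Grem1 window, and in the windows of the same length of Bmp5, Id3, Bmpr1a and Bmpr2 1, 2, 0 and 0 times. These letters are in 82.9% of all 32851 promoters (median 2 matches). GGCGCC, a motif of SMAD1 and SMAD5, was in the Grem1, Bmpr1a and Bmpr2 windows and in 9.59% of all promoters. A match describes the letters and is not a site.

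Other antagonists of the pathway list parted between mesenchymal types as well. Chrdl2 and Chrdl1, chordin-like antagonists, had 10 and 11 counts in myofibroblast-like, 0 and 7 in fibroblast-like and 0 and 0 in telocyte-like cells. Fst, which binds activins and BMPs, had 20 counts in telocyte-like and 0 in fibroblast-like and myofibroblast-like cells. Nbl1 was at 1589.9 CPM in the telocyte-like and 307 in the fibroblast-like cells. Telocyte-like cells, where all 5 ligands were highest and Grem1, Chrdl1 and Chrdl2 had 0 counts, also held transcripts of Nbl1, Twsg1 (614 CPM) and Fst (76.8 CPM).

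**Figure D1:**
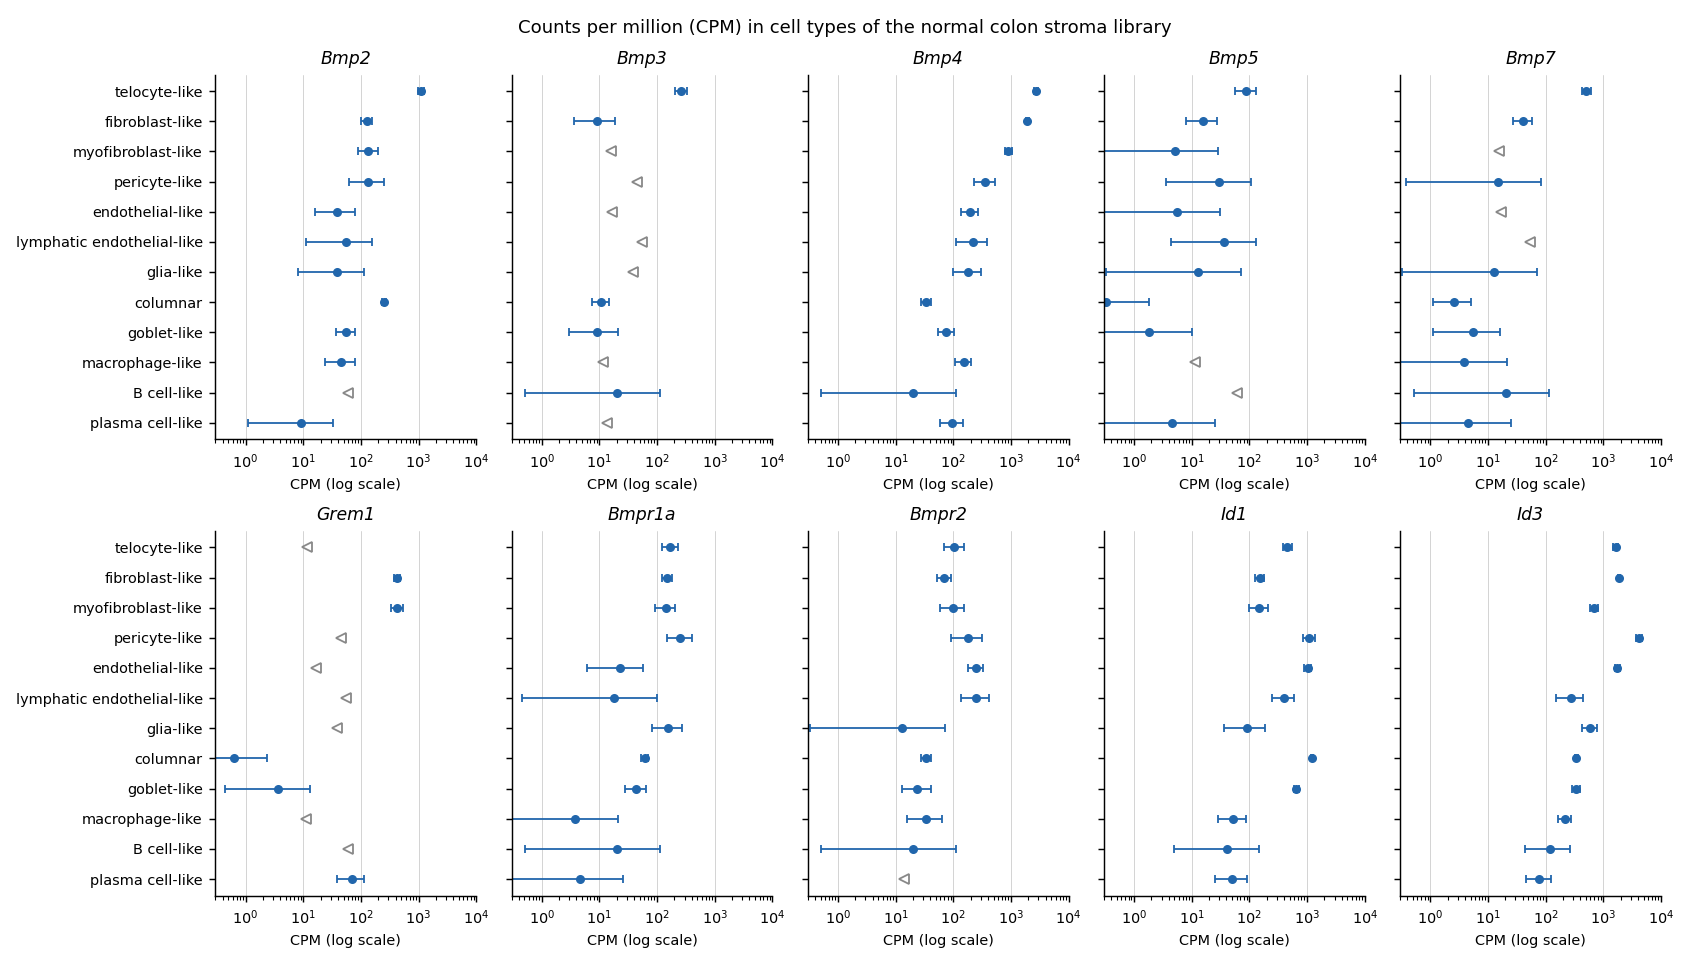
Level of each of the 10 genes (CPM, log axis) in the cell types of the normal colon stroma library. Points are levels, bars exact 95% Poisson intervals (cut at the axis limit), and open triangles types with 0 counts, drawn at the level that 3 counts would give. The 5 ligands were highest in telocyte-like cells, where Grem1 had 0 counts, and Id1 was highest in columnar and Id3 in pericyte-like cells.

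The receptors were found in most mesenchymal types of the stroma library. Bmpr1a (chr14:34410734-34503341, minus strand), a type I receptor, stood at 252 CPM in pericyte-like (17 counts, interval 147 to 404), 169 in telocyte-like, 156 in glia-like, 149 in fibroblast-like and 141 in myofibroblast-like cells. These levels did not differ beyond their intervals, and columnar cells were below them at 60.7 (52.3 to 70.0). Bmpr2 (chr1:59763400-59879014, plus strand), the type II receptor, stood at 253 CPM in lymphatic endothelial-like (14 counts, 138 to 424) and 246 in endothelial-like cells (44 counts, 178 to 329.6), against 70.0 in fibroblast-like and 33.7 in columnar cells. Macrophage-like cells had 1 count of Bmpr1a and 9 of Bmpr2 (3.78 and 34.0 CPM).

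The response genes differed from each other in the normal stroma. Id1 (chr2:152736251-152737410, plus strand) stood at 1205 CPM in columnar (3754 counts, interval 1167 to 1244), 1084 in pericyte-like and 1032 in endothelial-like cells, which did not differ beyond their intervals. Columnar cells held 80.1% of its counts, and within them the cell cycle cluster was lower (614, interval 537.8 to 698) than the Aqp4 and Saa1 clusters (1367 and 1145). Telocyte-like cells stood at 453, and fibroblast-like cells were below them at 150.3. Id1 was below 100 CPM in the immune types, with 52.9 in macrophage-like, 50.5 in plasma cell-like and 40.5 in B cell-like cells.

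Id3 (chr4:136143497-136145755, plus strand) was instead highest in mesenchymal and endothelial-like cells, though not in lymphatic endothelial-like ones. Pericyte-like cells stood at 4128 CPM (278 counts, interval 3657 to 4643), fibroblast-like at 1881 (1786 to 1981), endothelial-like at 1758 and telocyte-like cells at 1644 (1492 to 1807). The intervals of the last 3 overlapped each other. Columnar cells stood at 338, myofibroblast-like at 693, lymphatic endothelial-like at 271 (15 counts, 151 to 446) and macrophage-like cells at 215. In cells thinned to 1000 UMIs, a UMI of Id3 was in 65.0% of fibroblast-like and 22.4% of columnar cells (78.3 and 70.1% unthinned, medians 2310 and 6025.5 UMIs, with 30 and 7 shallower cells left out), and a UMI of Id1 in 14.8 and 62.9% (30.3 and 91.5% unthinned). At equal depth the order of the 2 cell types was opposite for the 2 genes. In macrophage-like cells the thinned shares were 3.12% for Id1 and 21.9% for Id3 (median 2508.5 UMIs).

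In the treated tumors, Bmp4, Bmp5, Bmp2 and Grem1 had their highest median levels in fibroblast-like cells, few as these were. The fibroblast markers (10 listed, 9 above 0 in each of the first 3 libraries and all 10 in day 6) summed to 33582, 14070, 8014 and 21284 CPM in them, and columnar markers in the same cells to 4009, 2504, 6892 and 5151 CPM. Day 3 had the lowest level of fibroblast markers and the highest level of columnar markers in these cells, and its ligand levels there were the lowest too. The part of these markers in the ligand levels was not tested.

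Bmp2 stood at 997, 968, 91.9 and 241 CPM in the fibroblast-like cells of the tumors (49, 230, 10 and 39 counts), against 52.7, 29.4, 14.2 and 55.6 in columnar cells. Both early libraries were above both late ones, and every library was higher in fibroblast-like than in columnar cells. The counts lay in few cells, since 1 cell held 28 of the 49, 63 of the 230, 5 of the 10 and 33 of the 39. Without that cell the levels were 509, 736, 47.4 and 40.5 CPM, so that day 6 without its highest cell was below the columnar level of the same library. The fibroblast-like level of the normal stroma was 126 and its highest cell held 6.19% of the counts.

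Bmp4 stood at 509, 501, 147 and 531 CPM in fibroblast-like cells of the tumors (25, 119, 16 and 86 counts), and at 0.799, 1.84, 2.14 and 1.55 in columnar cells. Day 3 was the low library and the other 3 lay close together. Endothelial-like cells had 37.6, 57.0, 12.1 and 35.9 CPM, between the 2 types in every library. Fibroblast-like cells held 55.6, 60.1, 42.1 and 64.7% of the Bmp4 counts of the 4 libraries. Their level in the normal stroma was 1941 CPM and the highest tumor library had 531, with different dissociations.

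Grem1 stood at 244, 328, 73.5 and 111 CPM in fibroblast-like cells of the tumors (12, 78, 8 and 18 counts), and these cells held 75.0, 88.6, 61.5 and 85.7% of all Grem1 counts. The early libraries were the higher ones. Columnar cells had 0, 1, 3 and 3 counts and endothelial-like cells 0 in all 4 libraries. As with Bmp2, 1 cell held 9 of the 12 counts in day 1 replicate 1 and 12 of the 18 in day 6. Of 139 fibroblast-like cells, 29 had a UMI of Grem1, 68 of Bmp4 and 22 of both, and 38 had a UMI of Bmp2, 16 of them with Grem1.

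Bmp5 had 8, 25, 1 and 28 counts in fibroblast-like cells of the tumors (163, 105, 9.19 and 173 CPM) and at most 5 counts in any columnar, squamous-like or Wif1 cluster sum other than the 7 of columnar cells in day 1 replicate 2. Bmp7 stood at 142, 71.5, 36.8 and 92.6 CPM in fibroblast-like cells (7, 17, 4 and 15 counts). Bmp3 was near the limit of detection in tumors, with 19, 61, 13 and 52 counts per library and at most 2 in fibroblast-like cells. No telocyte-like, myofibroblast-like or pericyte-like cluster was named in the tumors.

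**Figure D2:**
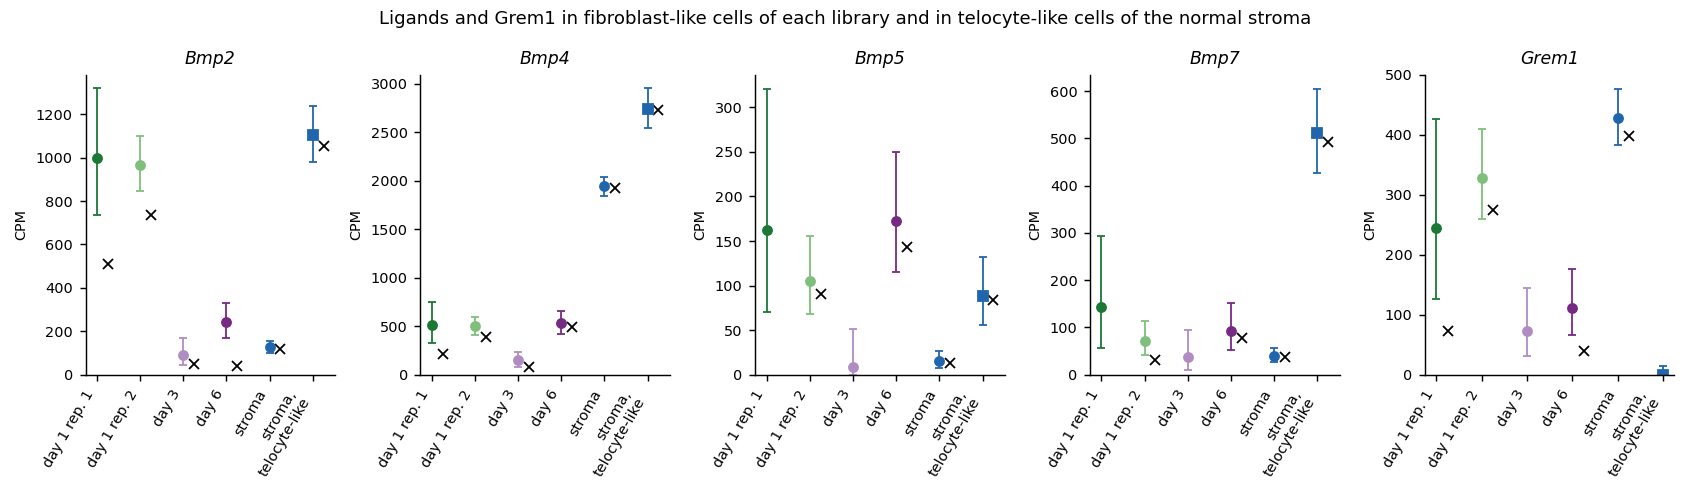
Level (CPM) of 4 ligands and Grem1 in fibroblast-like cells of each library (circles) and in telocyte-like cells of the normal stroma (squares), with exact 95% Poisson intervals. Crosses give the level without the cell that held most counts, where there were at least 10 counts. Without that cell, Bmp2 of day 6 fell from 241 to 40.5 CPM, while Bmp4 in the normal stroma moved from 1941 to 1925.

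Within the 4 treated libraries, fibroblast-like and columnar cells were compared by edgeR with each library as a block. Of the 10 genes 8 passed the filter on low counts. In fibroblast-like cells 5 were higher and 1 lower, where 9.85% of the 8700 genes tested were higher and 7.98% lower. Grem1, Bmp4 and Bmp7 stood at no more than 0.712, 2.14 and 10.9 CPM in columnar cells and passed the filter through fibroblast-like cells. They could thus be called higher but not lower, so the count of 5 is no separate support. With 7 counts in columnar cells over the 4 libraries, Grem1 has a fold of no fixed size. Grem1 differed by 8.80 ± 0.60 (log2, SE, adjusted p = 2.6e-08), Bmp4 by 7.84 ± 0.43 (adjusted p = 2.5e-09), Bmp7 by 4.04 ± 0.59 (adjusted p = 9.6e-05) and Bmp2 by 3.63 ± 0.45 (adjusted p = 1.7e-05), each higher in 4 of 4 libraries and called under each of the 12 alternatives run. None of these alternatives left out the cell with most counts, without which Bmp2 of day 6 was below the columnar level, as given above. Id3 was higher by 1.73 ± 0.31 (adjusted p = 0.00069). Id1 was lower by 0.79 ± 0.26 (log2fc -0.79, adjusted p = 0.0447) in 4 of 4 libraries on the TMM scale, though in day 3 by -0.06 there and not in CPM (478 against 474), and this call was lost under 5 of 12 alternatives (adjusted p up to 0.265), among them without day 1 replicate 1 (0.108), day 1 replicate 2 (0.187) or day 6 (0.0685). Bmpr1a and Bmpr2 differed by 0.55 ± 0.46 and 0.49 ± 0.36 and did not pass. Bmp3 and Bmp5 were under the filter.

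Endothelial-like cells (12, 61, 58 and 15 cells) were set apart by the type II receptor. Bmpr2 stood at 481, 547, 121 and 808 CPM there and at 69.5, 106, 33.7 and 46.0 in columnar cells. Endothelial-like cells were above columnar cells in every library, with day 3 lowest in both. In day 1 replicate 1 and day 6, 31 of 64 and 27 of 45 counts lay in 1 cell, without which the levels were 425 and 436 CPM. In edgeR 5 of the 10 genes were tested against columnar cells, with 2 higher and 1 lower, where 11% of 8990 genes were higher, 8.75% lower and 19.7% either. Bmpr2 was higher by 2.69 ± 0.31 (adjusted p = 5.2e-05) and Id3 by 1.92 ± 0.27 (adjusted p = 0.00030), and Bmpr1a was lower (log2fc -1.64 ± 0.39, adjusted p = 0.0102). The call for Bmpr1a was lost under 1 of 12 alternatives, without day 1 replicate 2 (adjusted p = 0.115). Id1 differed by 0.26 ± 0.19 and did not pass.

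Against fibroblast-like cells of the same libraries, endothelial-like cells were higher in Bmpr2 (2.24 ± 0.35, adjusted p = 0.00103) and Id1 (1.03 ± 0.25, adjusted p = 0.0156) and lower in Bmp2 (-4.73 ± 0.39, adjusted p = 6.8e-06), Bmp4 (-3.53 ± 0.30, adjusted p = 8.1e-06) and Grem1 (adjusted p = 8.5e-05, edgeR). Of 6 genes tested 5 passed, where 12.1% of 3282 genes did (6.73% higher, 5.36% lower). Bmp2, Bmp4 and Grem1 stood at no more than 40.3, 57.0 and 0 CPM in endothelial-like cells and passed the filter through fibroblast-like cells. They could thus be called lower but not higher in endothelial-like cells, so the count of 5 is no separate support. Endothelial-like cells had 0 counts of Grem1, so its fold has no fixed size. Over the 4 libraries together, the measured fibroblast-like level was 56.7 times the limit that 0 counts allow. Id3 differed by 0.22 ± 0.28. The Id1 call was lost under 3 of 11 alternatives, without the library block (adjusted p = 0.237), without day 1 replicate 1 (0.0645) and without day 1 replicate 2 (0.0868), and the Bmpr2 call under 1, without the block (adjusted p = 0.0623).

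**Figure D3:**
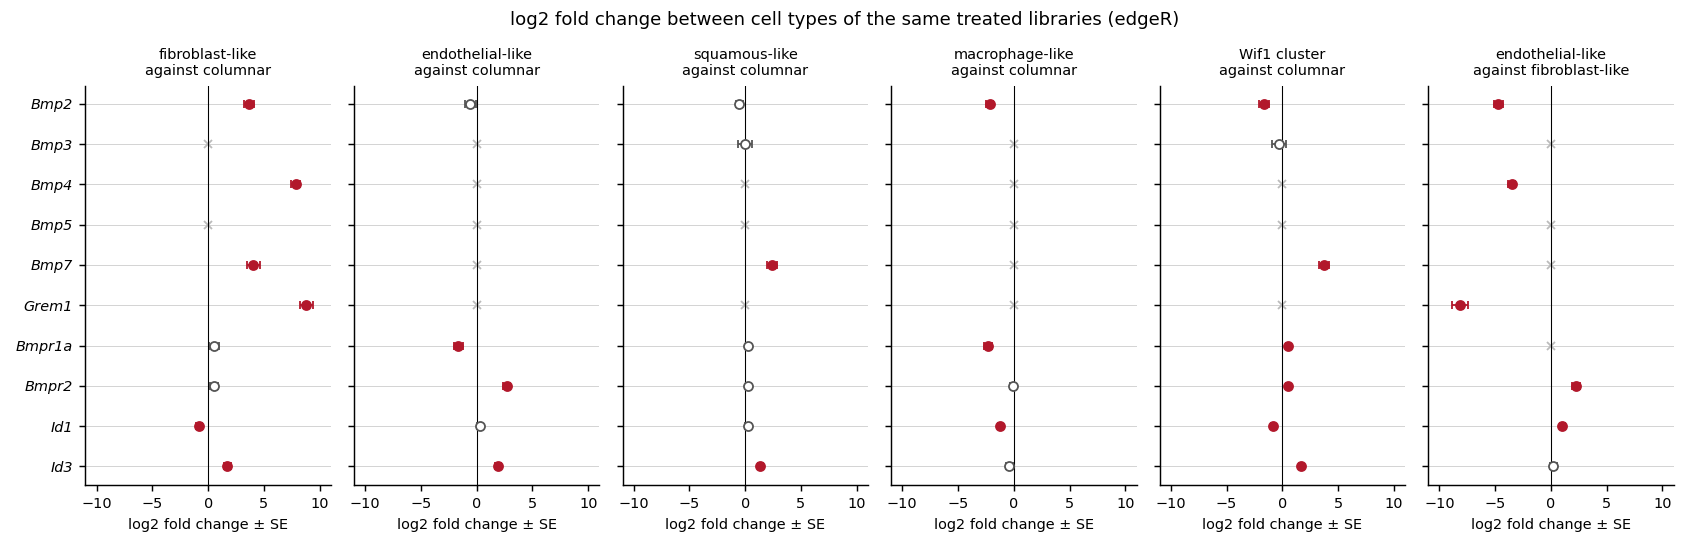
Log2 fold change (± SE, edgeR with the library as a block) of the 10 genes between cell types of the same treated libraries. Filled red points passed an adjusted p of 0.05, open points did not, and grey crosses mark genes under the filter. The folds of Grem1 between fibroblast-like cells and endothelial-like cells (0 counts in all 4 libraries) or columnar cells (7 counts) have no fixed size. Bmp2, Bmp4, Bmp7 and Grem1 were the genes farthest to the right in fibroblast-like cells, Bmpr2 in endothelial-like cells and Bmp7 in squamous-like cells and the Wif1 cluster.

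Fibroblast-like cells held 2.72, 3.88, 3.96 and 8.33% of the Bmp7 counts of the tumor libraries. Bmp7 stood at 54.2, 11.7, 27.4 and 24.3 CPM in squamous-like cells (20, 12, 32 and 112 counts) and at 6.39, 4.81, 10.9 and 1.55 in columnar cells. Squamous-like cells were higher in every library. EdgeR tested 7 of the 10 genes between these types and called 2 higher and 0 lower in squamous-like cells, where 10.5% of 11545 genes were higher and 11.5% lower. Bmp7 was higher by 2.39 ± 0.44 (adjusted p = 0.0053) and Id3 by 1.35 ± 0.24 (adjusted p = 0.0047), while Id1 differed by 0.25 ± 0.24. Bmp2, at 54.2, 20.4, 15.4 and 20.6 CPM in squamous-like cells, was lower by 0.54 ± 0.32 (log2fc -0.54) and did not pass.

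These 2 calls depended on where the Wif1 cluster was counted. With its cells added to the columnar cells, an alternative chosen after seeing the data, Bmp7 differed by 0.68 (adjusted p = 0.459) and Id3 by 0.79 (adjusted p = 0.0899), and at resolution 2 Bmp7 was not called either (adjusted p = 0.19). The Id3 call was also lost without the library block (adjusted p = 0.0724). Within day 6, levels differed between squamous-like clusters. Bmp7 stood at 38.2 CPM in the cluster led by Trp63, Krt17 and Col17a1, basal squamous genes, and at 11.5 in the one led by Ltf, Psca and Ppbp (83 and 25 counts, intervals 30.4 to 47.3 and 7.44 to 17.0). Id3 stood at 293 and 151 CPM in the same 2 clusters, again with the basal one higher (271 to 317 and 135 to 168), and the one led by Calm4 and Krt10, suprabasal genes, at 194 (143 to 257).

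The Wif1 cluster held more Bmp7 counts than any other type in both early libraries. Bmp7 stood at 102, 74.2, 38.3 and 120.1 CPM there (188, 326, 5 and 21 counts), and the cluster held 73.2 and 74.4% of all Bmp7 counts of day 1 replicates 1 and 2 but 4.95 and 11.7% in day 3 and day 6, where it had 23 and 16 cells. In day 6 squamous-like cells held 62.2%. The cluster is unnamed, so its place among the cell types is not given. The epithelial keratin Krt8 stood at 1299.9, 1712, 1517 and 2008 CPM in it and at 3489, 5680, 2655 and 6463 in columnar cells. Krt18 stood at 685, 586, 720 and 440 in the cluster and at 569, 718, 733 and 210 in columnar cells. Cdh17 stood at 386, 411, 429 and 366 in the cluster and at 677, 704, 694 and 916 in columnar cells. Neutrophil-like cells had 397, 395, 597 and 180 of Krt18 and 314, 297, 398 and 231 of Cdh17. Their Krt8 stood at 1559, 2411, 2119 and 2929, above the cluster in every library. In the cluster Col1a1 stood at 5.72 to 7.66 and Pdgfra at 0 to 1.82. Mgp, on the fibroblast list, stood at 3744, 3150, 2084 and 1384 there, above the 977, 522, 331 and 476 of fibroblast-like cells. It was not confined to those types in these tumors, with 987, 496, 435 and 30.4 in columnar cells. Neutrophil-like cells had 1690, 671, 555 and 25.7 of it.

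Against columnar cells, a comparison added after seeing the data, 7 of the 10 genes were tested in the Wif1 cluster, with 4 higher and 2 lower, where 12.9% of 11799 genes were higher and 18.1% lower. Bmp7 was higher by 3.74 ± 0.42 (edgeR, adjusted p = 2.5e-05) and Id3 by 1.69 ± 0.16 (adjusted p = 7.6e-06), both in 4 of 4 libraries and under all 10 alternatives. Bmp2 and Id1 were lower (log2fc -1.66 ± 0.41 and -0.81 ± 0.18, adjusted p = 0.0083 and 0.0042), and the Bmp2 call was lost under 3 of 10 alternatives, among them without day 1 replicate 1 (adjusted p = 0.105), and the Id1 call under 1, without the block (adjusted p = 0.103). Bmpr1a and Bmpr2 were higher by 0.55 ± 0.18 and 0.50 ± 0.17 (adjusted p = 0.034 and 0.036), calls that were lost under 7 and 10 of 10 alternatives. Bmpr1a and Bmpr2 stood at 108, 186, 38.3 and 160.2 and at 106, 153, 69.0 and 120.1 CPM in this cluster.

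Bmp2 of columnar cells varied between tumor clusters as it did in the normal stroma. In day 6 it stood at 82.9 CPM (306 counts, interval 73.9 to 92.7) in the cluster led by Clca4b, Ifit1bl1 and Gbp2, at 43.3 (32.0 to 57.2) in the one led by Pigr and at 31.5 (25.9 to 38.0) in the one led by Adh1 and Pcdh17. In day 1 replicate 2 it stood at 63.9 (54.5 to 74.6) in the cluster led by Clca4a and at 9.77 (7.10 to 13.1) in the one led by Reg3b and Cftr. Day 3 had 27.7 (20.2 to 37.1) in the cluster led by Gprc5a and 5.51 (3.01 to 9.24) in the one led by Gm7808 and Gpx2. Day 1 replicate 1 had 215 (19 counts in 12 cells) in the cluster led by Clca4a and 77.4 (50.5 to 113) in the one led by Gprc5a. Its clusters led by Reg3b and by Gm7808 had 32.3 (18.8 to 51.7) and 13.8 (3.75 to 35.3). The clusters led by Pigr and by Clca4a had more markers of another type than columnar markers among their leading genes. Columnar cells held 34.0, 35.02, 60 and 72.6% of all Bmp2 counts of the tumor libraries, the highest share of any type in 3 of them, and fibroblast-like cells 25.3, 38.7, 10 and 6.07%.

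**Figure D4:**
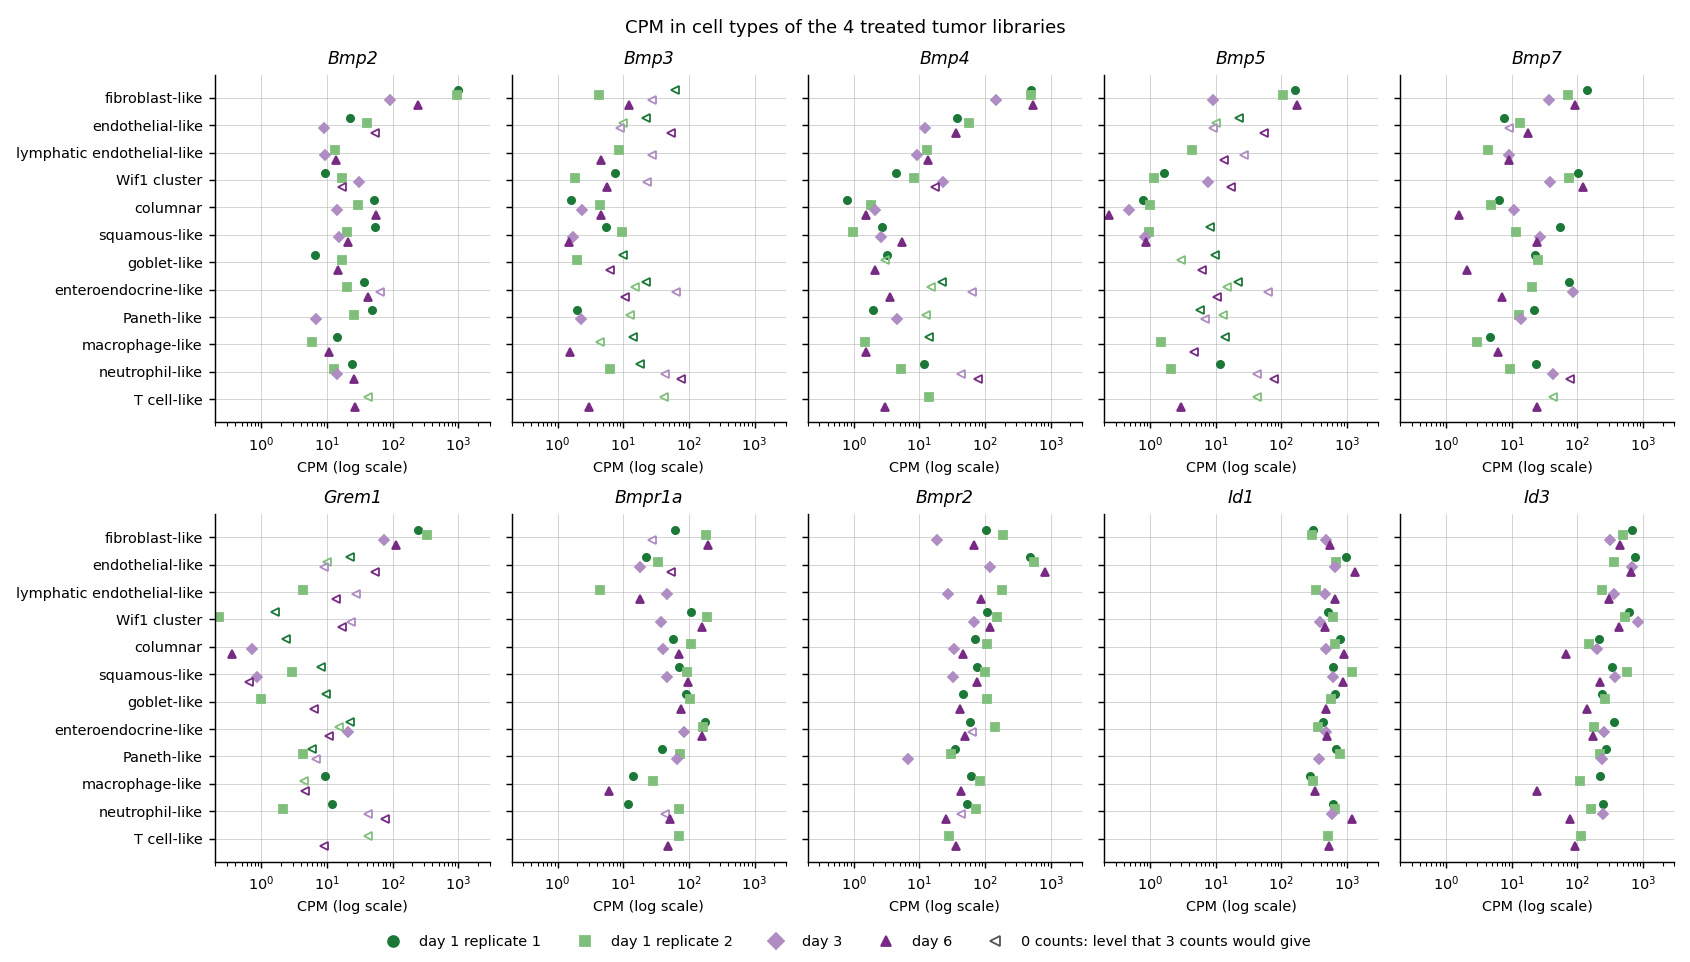
Level of each gene (CPM, log axis) by cell type in the 4 treated libraries, 1 symbol per library. Open triangles mark 0 counts, at the level that 3 counts would give. Grem1, Bmp4 and Bmp5 levels were highest in fibroblast-like cells in every library (Bmp5 in day 3 by 1 count, 9.19 CPM), while Id1 lay between 225 and 1329 CPM in every type and library with a sum of at least 10 cells.

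Id1 was broad in the treated tumors. It stood at 795, 667, 474 and 891 CPM in columnar cells, at 609.7, 1215, 623 and 875 in squamous-like and at 954, 674, 669.7 and 1329 in endothelial-like cells, with overlapping ranges over libraries. Neutrophil-like cells stood at 623, 658, 583 and 1182. After thinning to 1000 UMIs a UMI of Id1 was in 51.6, 45.4, 36.8 and 56.1% of columnar cells (86.3, 86.1, 73.3 and 82.6% unthinned, medians 5479, 4647, 3044.5 and 2048.5 UMIs) and in 42.0, 45.2, 53.6 and 56.5% of neutrophil-like cells (75.4, 70.1, 64.3 and 70.8% unthinned, medians 2287, 2116, 2017 and 1419 UMIs). The exact 95% intervals of the 2 types overlapped in every library, in day 3 at 33.6 to 40.1% against 33.9 to 72.5%. Thinning left out 126 columnar cells and 1 neutrophil-like cell of day 6. In macrophage-like cells of both day 1 replicates and day 6 the thinned shares were lower, at 28.3, 29.7 and 26.5% (60.9, 71.0 and 74.0% unthinned, medians 3633.5, 4770.5 and 3560 UMIs). Their intervals lay below those of columnar cells in day 1 replicate 2 (22.2 to 38.1% against 42.0 to 48.8%) and day 6 (19.6 to 34.3% against 53.2 to 58.9%) and overlapped them in day 1 replicate 1. Columnar markers summed to 6178, 6990, 8647 and 8634 CPM in neutrophil-like cells and to 2907, 3474 and 4274 CPM in macrophage-like cells of the tumors, against 510 in macrophage-like cells of the normal stroma. The part of free RNA in the Id1 and Id3 values of any type was not tested.

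Macrophage-like cells were among the low types for Id1 in tumors, at 273, 299.8 and 325 CPM in both day 1 replicates and day 6 (the day 3 library had 5 cells and no sum). In edgeR against columnar cells, Id1 was lower (log2fc -1.26 ± 0.16, adjusted p = 0.00020), as were Bmp2 (-2.16 ± 0.33, adjusted p = 0.00066) and Bmpr1a (-2.29 ± 0.35, adjusted p = 0.00067), in 3 of 3 libraries each. Thus 3 of 5 genes tested were lower and 0 higher, where 19.5% of 9500 genes were lower and 18.8% higher. Bmpr2 differed by -0.11 ± 0.21 and Id3 by -0.40 ± 0.29 and did not pass, though Id3 was called lower under 2 of 11 alternatives, at resolution 2 (-0.81, adjusted p = 0.0276) and with the Wif1 cluster counted as columnar (-1.09, adjusted p = 0.00834). In the normal stroma, Id1 of macrophage-like cells was 52.9 CPM.

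Id3 differed between the tumor cell types. It stood at 211, 149, 199 and 66.7 CPM in columnar cells, and at 759, 356, 688 and 646 in endothelial-like, 604, 538, 835 and 423 in Wif1 cluster, 672, 501, 312 and 451 in fibroblast-like and 339, 561, 368 and 221 in squamous-like cells. Columnar cells were the lowest of these 5 types in every library, and day 6 was their lowest. Neutrophil-like cells had 249, 161, 242 and 77.1 CPM, near the columnar level. The Wif1 cluster held 55.6 and 48.2% of the Id3 counts of day 1 replicates 1 and 2, columnar cells 45.9% in day 3 and squamous-like cells 50.1% in day 6.

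After thinning, a UMI of Id3 was in 15.3, 13.03, 20.5 and 9.002% of columnar cells (53.2, 45.9, 44.7 and 23.7% unthinned) and in 24.6, 13.5, 17.9 and 4.35% of neutrophil-like cells (37.7, 29.4, 39.3 and 12.5% unthinned). The intervals of the 2 types overlapped in every library, with 23 to 394 neutrophil-like cells. In macrophage-like cells of both day 1 replicates and day 6 the thinned shares of Id3 were 13.04, 10.9 and 3.31% (54.3, 37.7 and 9.74% unthinned), and these intervals overlapped the columnar ones too. A UMI of Id3 was in 34.0, 32.9, 39.1 and 43.8% of Wif1 cluster cells (80.7, 72.4, 73.9 and 93.8% unthinned, medians 5852 to 9533 UMIs) and in 30.2, 37.4, 27.4 and 16.6% of squamous-like cells (71.7, 67.4, 57.7 and 45.7% unthinned, medians 2537 to 5681 UMIs). Of the 4 libraries, day 1 replicate 2 was the one where the intervals of both lay above that of neutrophil-like cells (10.2 to 17.2%). Fibroblast-like cells had 42.9, 33.3, 16.7 and 29.4% (64.3, 56.4, 40 and 48.2% unthinned, medians 2019.5 to 4479 UMIs) against 65.0% in the normal stroma.

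**Figure D5:**
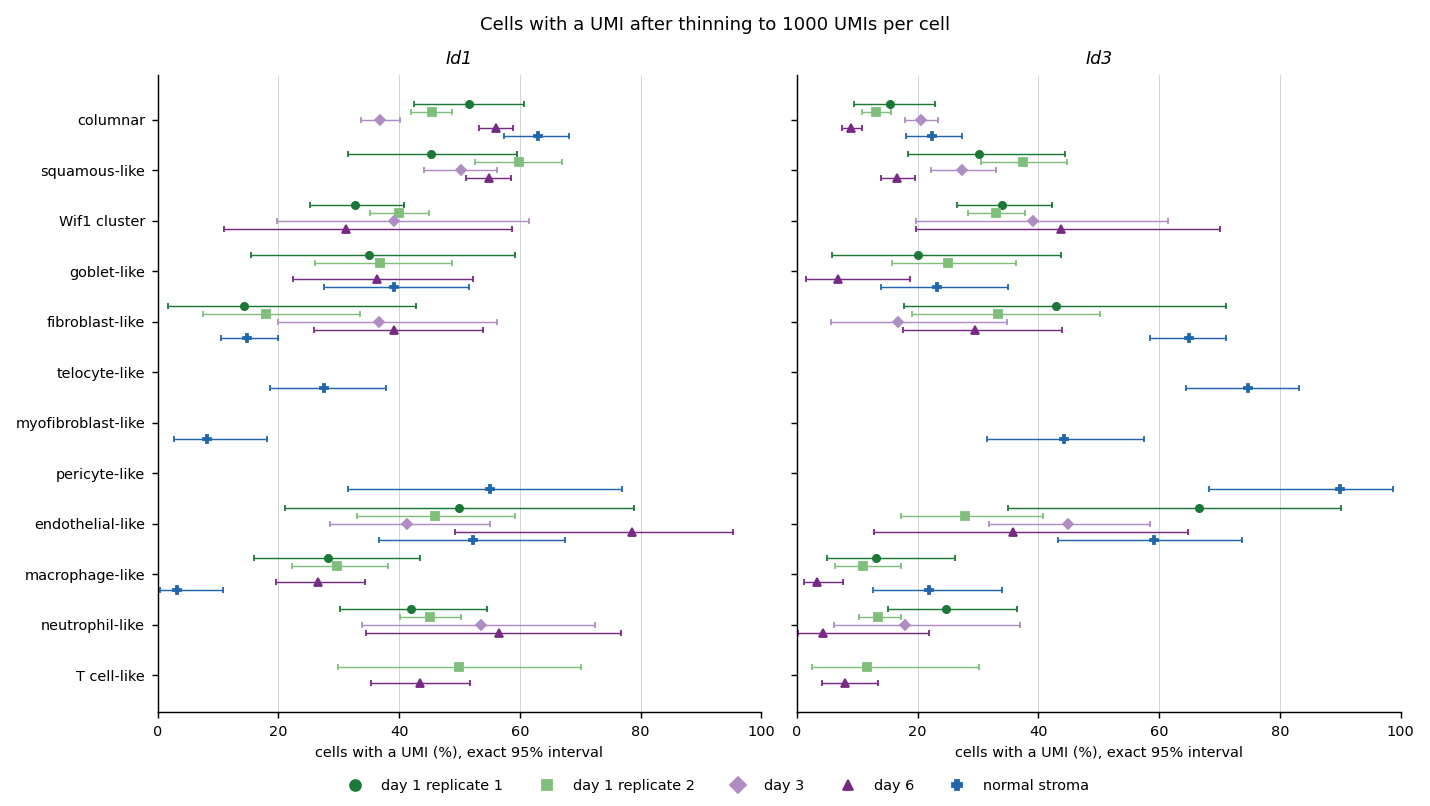
Share of cells with a UMI of Id1 (left) and Id3 (right) after thinning each cell to 1000 UMIs, by cell type and library, with exact 95% binomial intervals. In tumors the shares of Id1 in columnar cells (36.8 to 56.1%) and neutrophil-like cells (42.0 to 56.5%) overlapped, while macrophage-like cells were lower (26.5 to 29.7%). In the normal stroma columnar cells were at 62.9% and macrophage-like cells at 3.12% for Id1.

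Late and early libraries were compared in each cell type to see whether levels of the pathway genes differed between them. No member passed an adjusted p of 0.05 in edgeR in columnar (8 tested), squamous-like (6), fibroblast-like (9) or endothelial-like cells (3), where 0%, 0%, 0% and 0.0599% of all genes tested did, and DESeq2 also called 0 members in each, with 49, 16, 11 and 13 genes called in all. At an unadjusted p under 0.05 there were 0, 0, 2 and 0 members and 751, 383, 269 and 456 genes. In single index libraries and then in dual index libraries, columnar Id1 differed by -0.56 and 0.79 (log2, late minus early), columnar Id3 by 0.10 and -0.78 and columnar Bmp2 by -1.68 and 1.28, so that the direction was opposite in the 2 structures.

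The 2 members with an unadjusted p under 0.05 were Bmp2 and Grem1 of fibroblast-like cells. Bmp2 had a log2 change of -2.45 ± 0.69 (adjusted p = 0.521, edgeR) and was lower in late libraries in both structures (-3.15 in single index and -1.87 in dual index libraries). Grem1 had a log2 change of -1.55 ± 0.58 (adjusted p = 0.584, edgeR), with -1.46 and -1.38 within structures. Neither is a change by the test used, and whether the Bmp2 difference exceeded that of columnar cells did not pass either (-2.44 ± 0.52, adjusted p = 0.431). Without day 6, 2 members were called, Bmp2 (-3.34, adjusted p = 0.011) and Bmpr1a (-7.17, adjusted p = 0.013), the latter with 0 counts in day 3, so its fold has no fixed size. Bmp4 differed by -1.60 and 0.15 within structures.

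In macrophage-like cells, where day 6 was the only late library with enough cells, Id3 was the single member called. It stood at 221, 108 and 24.6 CPM in both day 1 replicates and day 6 (47, 73 and 16 counts). Day 6 was the low library. The log2 change was -2.59 ± 0.60 (edgeR, adjusted p = 0.00184), 1 lower of 4 members tested where 0.784% of 8934 genes were lower, 1.18% higher and 1.96% either. DESeq2 did not call it (adjusted p = 0.681), and with 1 late library the spread is that of the early libraries only. The Id3 level of columnar cells was also lowest in day 6 (66.7 CPM), and whether the change differed from that of columnar cells was tested and did not pass (difference -1.42, adjusted p = 0.11).

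The other genes of the pathway were 58 by list, of which 57 were measured. Between fibroblast-like and columnar cells 25 were tested, 12 higher and 0 lower (of all genes 9.85% were higher and 7.98% lower), with a median log2 fold of 0.98 against -0.08 over all genes. Inhba, an activin subunit, was higher by 7.12 ± 0.63, the follistatin-like gene Fstl1 by 6.71 ± 0.60, the protease gene Htra1 by 5.37 ± 0.53 and the ligand Bmp6 by 4.55 ± 0.69. The type I receptor Acvrl1 and the co-receptor Eng were higher by 4.89 and 4.90 there. Inhba stood at 305, 488, 64.3 and 494 CPM in tumor fibroblast-like cells and at 31.1 in those of the normal stroma, while Gdf10 had 48 counts in the latter.

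In endothelial-like cells, of 24 genes tested against columnar cells 10 were higher and 1 lower, where 11% and 8.75% of all genes were (median 0.60 against -0.10). Eng was higher by 7.88 ± 0.37 and Acvrl1 by 6.10 ± 0.41, a co-receptor and a receptor of the endothelial BMP response. The response genes Gata2, Hey1 and Smad6 were higher by 5.46, 4.65 and 2.24, and Fst was lower by 1.97 (log2fc -1.97). Against fibroblast-like cells 2 of 9 tested were higher, Eng (3.06) and Acvrl1 (1.35), and 2 lower, Nbl1 (-3.42) and Fstl1 (-1.22), where 6.73% of all genes were higher and 5.36% lower.

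In squamous-like cells 10 of 32 other genes were higher and 3 lower than in columnar cells, where 10.5% of all genes were higher and 11.5% lower (median 0.47 against 0.00 over all genes). They included the response genes Runx2 (5.15 ± 0.33), Id4 (3.38 ± 0.59) and Id2 (1.95 ± 0.24) and the antagonist Sostdc1 (4.93 ± 0.41), and the lower ones were Bmp8b (-1.87), Nbl1 (-0.92) and Smad4 (-0.78). In the Wif1 cluster 12 of 30 were higher and 3 lower, where 12.9% and 18.1% of all genes were (median 0.44 against -0.05), among them Gdf11 (5.18 ± 0.37), Htra1 (4.43 ± 0.31), Inhbb (2.52 ± 0.37) and the inhibitory SMADs Smad6 and Smad7 (1.01 and 1.02). In macrophage-like cells 5 of 21 were higher and 5 lower, near the 18.8% and 19.5% of all genes (median -0.32 against -0.08), with Inhba (6.83), Runx2 (4.28) and Id2 (2.91) higher and Neo1 (-3.18) and Bambi (-1.84) lower. Of the 36, 24, 14, 17 and 20 other genes tested between late and early treatment in columnar, squamous-like, fibroblast-like, endothelial-like and macrophage-like cells, 0 were called.

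The genes whose levels most resembled each member were taken from 13815 genes over 49 sums of cell type and library, as a description without a test. Sums of 1 library share its depth and free RNA, and a likeness says nothing of shared control. Bmp4 was most like Mxra8 (Pearson r 0.95), Col6a1 (0.94) and Col3a1 (0.94). Grem1 was most like Fgf7 (0.82), Dclk1 (0.77), Mmp11, Gli2 and Mfap4, and Bmp2 most like Ereg (0.81) and Col6a3 (0.80). Bmp7 had lower values, led by Cdh11 (0.70) and Ccdc3 (0.69). Id1 was most like Ctnnd1 (0.80), Mllt4 (0.78) and Ano1 (0.77), and Id3 most like Mfge8 (0.81), Rab13 (0.78) and Zfp503 (0.77).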

How the data were processed

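Cells of 4 treated tumor libraries and 1 normal stroma library were profiled by inDrop. The authors aligned reads to GRCm38, and the deposited values are raw UMI counts per gene and cell (dropEst, per the methods), not normalized, so CPM here is counts scaled by the total of the summed cells. How barcodes were filtered before deposit affects which cells could be read. Cells with at least 500 genes and at most 15% mitochondrial counts were kept. Tumor and stroma cells were clustered apart (scanpy 1.11.5, leidenalg 0.10.2; 2000 variable genes, 20 principal components, 20 neighbours, resolution 1) without 68 BMP pathway genes, and named from marker lists at a 2-fold excess or, failing that, 1.25-fold. No doublets were removed, and removal of the top 6% of Scrublet scores was an alternative. In tumors, 2 columnar clusters had more markers of another type than columnar markers among their leading genes. The cluster led by Pigr held 720 of the 1348 columnar cells of day 6. The cluster led by Clca4a held 413 of the 844 of day 1 replicate 2.

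Counts were summed per library and type (at least 10 cells) and tested with the quasi-likelihood F test of edgeR 4.0.16 after filterByExpr and TMM scaling (threshold 0.05 on p adjusted by Benjamini-Hochberg over all genes), with the library as a block between types and none between late and early. The block pairs cell types of the same library, since these share an origin. DESeq2 1.42.0, other filters, cluster settings and leaving out each library were alternatives. Differences are log2 with SE. Poisson and Clopper-Pearson intervals are exact, at 95%, and a count of 0 is given the limit of 3 counts. Tests were also run on simulated counts with a fixed dispersion and no library effect. These settings differ from the data, so that check cannot show how the tests behave here. Named were the 10 genes, the pathway genes that passed a test and the 5 genes most like each member (log2 of CPM + 10, at least 20 cells and 100 counts). Members and lists were chosen with earlier results of these data known. Promoters are RefSeq windows and gene positions GENCODE, both GRCm38.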

Additional observations from a re-analysis of the deposited data

Results flagged for a closer look

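Bmp3, between squamous-like and columnar cells, was the result whose direction was opposite in the early and late libraries. It was higher in squamous-like cells in both early libraries (log2 difference 1.43 and 1.22) and lower in both late ones (-0.30 and -1.45), a late minus early difference of -2.20. It rested on 2, 10, 2 and 7 counts in squamous-like cells. The interaction in edgeR did not pass (adjusted p = 1.0, unadjusted p = 0.0166).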

How the results depend on the processing

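Values under alternatives were tallied for members called in at least 1 setting of a comparison. Of these values 275 kept direction and side of the threshold, 36 were weaker, 4 stronger and 3 reversed. Counts of members called stayed within 1.5 times in 108 cases and moved in 11, and counts of all genes called stayed in 79 and moved in 40. Without the replicate block, in which cell types of a library are paired, the count of members called fell to 1 between squamous-like and columnar cells, to 3 between endothelial-like and fibroblast-like cells and to 2 between the Wif1 cluster and columnar cells, from 2, 5 and 6. Squamous-like cells had 1 call at resolution 2 and 0 with the Wif1 cluster counted as columnar, the Wif1 cluster 3 without columnar clusters led by a marker of another type, endothelial-like against fibroblast-like cells 8 without the filter, and macrophage-like cells 0 between late and early in DESeq2. Leaving out 1 library gave 0 to 2 calls between late and early fibroblast-like cells (2 without day 6), 3 to 7 between endothelial-like and fibroblast-like cells (3 without day 1 replicate 2) and 3 to 6 for the Wif1 cluster (3 without day 1 replicate 1). Bmpr1a between late and early fibroblast-like cells ranged from -7.17 to 0.85 (main -0.28, reversed without day 1 replicate 2 at 0.85 and without day 3 at 0.66), and Id3 between macrophage-like and columnar cells from -1.09 (with the Wif1 cluster as columnar, called, as at resolution 2) to 0.011 (reversed without day 6; -0.78 without day 1 replicate 1). In the normal stroma Grem1 of fibroblast-like cells was 511 CPM in cells with at least 1000 genes, and Id3 of pericyte-like cells was 4829.7 CPM without the top 6% of Scrublet scores. The cause was not tested for any of these. Of all genes, calls ranged from 0 to 252, 0 to 96, 0 to 175, 0 to 61 and 16 to 176 between late and early columnar, squamous-like, fibroblast-like, endothelial-like and macrophage-like cells (main 0, 0, 0, 3 and 175), and for type comparisons from 977 to 3633 (main 2542, squamous-like), 897 to 2807 (1551, fibroblast-like), 802 to 2836 (1775, endothelial-like against columnar), 225 to 1011 (397, against fibroblast-like), 2192 to 4659 (3640, macrophage-like) and 1463 to 4428 (3661, Wif1 cluster). Naming at the full fold left no columnar cells in tumors, resolution 2 gave no Wif1 cluster, and late against early macrophage-like cells could not be fitted without a library or with structure as a block. The alternatives with the Wif1 cluster as columnar and without mixed columnar clusters were chosen after seeing the data. Fibroblast-like sums of 14 to 56 cells limit what the tumor values can show.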
